A study of Mus musculus with 10 samples.

Results

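The 10 genes described here mark T cells, NK cells and their killing machinery: Cd3e, Cd3g, Cd8a, Cd4, Nkg7, Gzma, Gzmb, Prf1, Klrb1c and Ncr1. They were chosen by name rather than by a threshold on a measured value, and all 10 were found among the 38922 genes measured. The livers were those of C57BL/6N males of an inbred strain, aged 6 weeks, with no transgene or deletion named for either group. Saline was given intraperitoneally to 5 animals, written here as Saline 1 to 5, and 5 others, CD95-Ab 1 to 5, received CD95-Ab at 0.5 µg/g, an antibody that activates the death receptor CD95 (Fas) and causes acute liver failure. Tissue was taken 6 h later in both groups. Whole liver RNA was sequenced, with 1 library for each mouse, so no cell type was sorted. The question was how transcripts of cytotoxic lymphocytes stood in the failing liver.

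T cells recognise antigen through the T cell receptor, which signals through the CD3 chains, and the co-receptors CD4 and CD8 bind MHC class II and class I molecules. NK cells carry no such receptor and use activating and inhibitory receptors instead, among them NKp46 (Ncr1) and NK1.1 (Klrb1c). Both NK cells and CD8 T cells kill by releasing granules that hold perforin, which forms pores, and granzymes, the proteases that enter the target. The liver normally houses many NK cells and T cells, and CD95 is itself the receptor for Fas ligand, another killing molecule of these lymphocytes.

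The promoters of the 3 genes with the largest fold changes are shown because they place cytotoxic genes side by side. Each is the RefSeq window of 300 bases around the transcription start (build GRCm38.p6), written 5′ to 3′ on the strand of the gene, with matches to any of 4 motifs in capitals. Prf1 lay at chr10:61297586-61297885 on the + strand, Klrb1c at chr6:128788592-128788891 on the − strand and Gzmb at chr14:56262285-56262584 on the − strand.
Prf1: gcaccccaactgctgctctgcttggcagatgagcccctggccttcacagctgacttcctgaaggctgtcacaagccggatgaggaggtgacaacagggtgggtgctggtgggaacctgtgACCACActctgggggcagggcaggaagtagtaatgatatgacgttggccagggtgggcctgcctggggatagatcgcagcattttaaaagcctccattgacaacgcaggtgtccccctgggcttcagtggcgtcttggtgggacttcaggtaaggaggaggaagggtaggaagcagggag
Klrb1c: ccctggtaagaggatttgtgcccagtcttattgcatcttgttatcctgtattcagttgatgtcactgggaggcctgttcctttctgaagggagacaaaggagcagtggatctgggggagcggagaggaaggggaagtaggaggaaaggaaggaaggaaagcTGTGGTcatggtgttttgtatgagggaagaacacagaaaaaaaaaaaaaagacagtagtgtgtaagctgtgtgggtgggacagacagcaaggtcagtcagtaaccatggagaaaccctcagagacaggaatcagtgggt
Gzmb: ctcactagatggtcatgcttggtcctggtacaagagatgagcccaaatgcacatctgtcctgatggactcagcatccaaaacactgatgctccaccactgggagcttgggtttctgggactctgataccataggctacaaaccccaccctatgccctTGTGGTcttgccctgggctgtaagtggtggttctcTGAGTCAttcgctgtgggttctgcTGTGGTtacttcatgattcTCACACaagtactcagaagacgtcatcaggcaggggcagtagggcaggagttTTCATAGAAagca
The motifs were searched on both strands and were the Runx core TGTGGT, the T-box core TCACAC, the AP-1 motif TGANTCA and the STAT motif TTCNNNGAA. A window was listed for 9 of the 10 genes. The Runx core was found in 6 of these 9 (Nkg7, Gzma, Gzmb, Prf1, Klrb1c and Ncr1), against 16.8% of 32851 promoters of the same length. The T-box core was found in 3 (Nkg7, Gzmb and Ncr1; 14.5% of all promoters), the STAT motif in 2 (Nkg7 and Gzmb; 8.30%) and the AP-1 motif in 1 (Gzmb; 7.81%). Gzmb held all 4 motifs, with Runx cores beginning 93 and 34 bases before the start and the AP-1 motif 58 bases before it. The single Runx core began 130 bases before the start in Prf1 and 89 before it in Klrb1c. The windows of Cd3e, Cd3g and Cd8a held none of these letters. For Gzmb, the RefSeq window lay wholly upstream of the gene as GENCODE draws it, whose 5′ end is at 56262260. For Klrb1c, the window lay wholly within the gene as GENCODE draws it, whose 5′ end is at 128789215. Distances are thus from the RefSeq start. A match describes the letters only and is not a binding site.

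Between 25965699 and 62097636 counts were assigned to genes in each mouse. Values are CPM (counts per 1000000 after TMM adjustment of the totals), and 3 counts in the adjusted totals corresponded to between 0.0556 and 0.121 CPM. After the filter on low counts 13719 genes were tested with edgeR's quasi-likelihood test, and p-values were adjusted over all of them by the Benjamini-Hochberg method (FDR). At an FDR of 0.05 or less, 47.3% of tested genes were called in either direction and 25.4% were called higher after CD95-Ab. The median log2 fold change over all tested genes was 0.01. Nothing in the labels names separate batches. The hepatocyte markers were all measured, and their summed level was 112000 to 142000 CPM in saline-injected mice and 52800 to 92100 CPM after CD95-Ab.

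All 10 lymphocyte genes passed the filter, and transcripts of 8 of them rose: Prf1, Klrb1c, Gzmb, Gzma, Ncr1, Cd8a, Nkg7 and Cd3e. The remaining genes, Cd3g and Cd4, had positive log2 fold changes with an FDR just over the threshold. The 8 called higher stood against a background of 25.4% of all tested genes. Prf1 and Klrb1c also passed a log2 fold change of 2, as did 6.59% of tested genes. In 3 genes, Cd3e, Prf1 and Klrb1c, every CD95-Ab mouse lay above every saline-injected mouse, which was true of 18.6% of tested genes. The log2 fold changes ran from 0.77 to 3.05 with a median of 1.46. None fell in edgeR, at the FDR or at an unadjusted p under 0.05, or in DESeq2, since every fold change was positive. These genes were rare transcripts in liver, with 0 to 177 counts in a mouse. In whole tissue, a change in the number of cells of a type and a change in RNA per cell cannot be told apart.

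**Figure D1:**
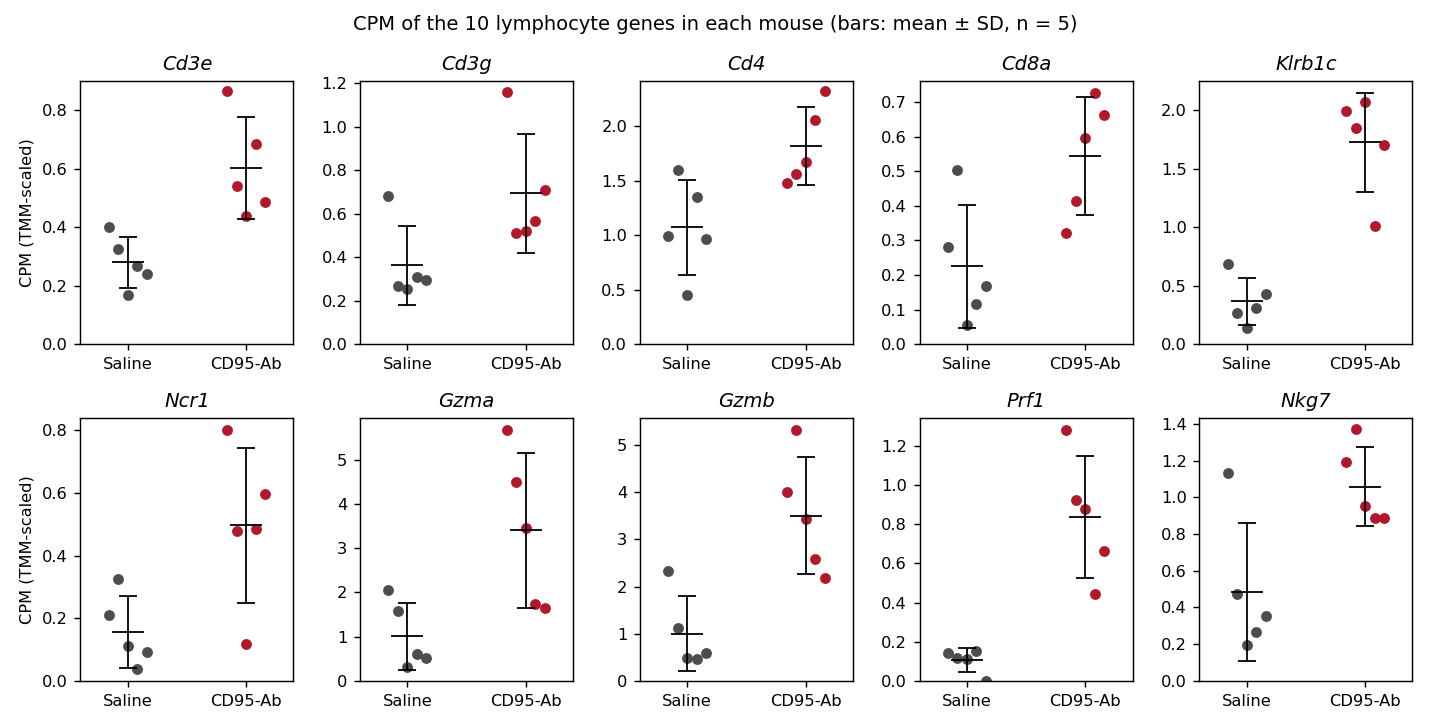
CPM of each lymphocyte gene (vertical axis, linear from 0) in the 5 saline-injected mice (grey) and the 5 CD95-Ab mice (red), with the mean ± SD in black. The groups are separate for Cd3e, Prf1 and Klrb1c and overlap for the other 7 genes, with Saline 1 high for Cd3g, Nkg7 and Gzmb.

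The CD3 chains were near 1 CPM or below in every mouse. Cd3e encodes CD3 epsilon, a signaling chain of the T cell receptor, and lies at chr9:44998740-45009627 on the − strand (ENSMUSG00000032093, GRCm38). Its level was 0.4, 0.326, 0.169, 0.269 and 0.241 CPM in Saline 1 to 5, and 0.866, 0.541, 0.438, 0.686 and 0.487 CPM in CD95-Ab 1 to 5. The lowest CD95-Ab mouse, CD95-Ab 3, thus lay just above the highest saline-injected mouse, Saline 1. The mean rose from 0.281 ± 0.0872 to 0.604 ± 0.174 CPM (SD over 5 mice in each group), giving a log2 fold change of 1.09 ± 0.31 (SE; edgeR quasi-likelihood test, FDR = 0.0121). Gm48719, annotated as antisense, and Gm48720 overlap Cd3e and are not among the genes in the tables, so reads from them were not counted apart.

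Cd3g encodes CD3 gamma, the partner of CD3 epsilon, 18309 bp away on the same strand (ENSMUSG00000002033, chr9:44969572-44980431). Saline 1 to 5 had 0.682, 0.267, 0.254, 0.308 and 0.297 CPM, and CD95-Ab 1 to 5 had 1.16, 0.51, 0.518, 0.565 and 0.709 CPM. Replicate 1 was the highest mouse of each group, and Saline 1 stood above 3 of the CD95-Ab mice. The means were 0.361 ± 0.181 and 0.691 ± 0.271 CPM (SD, n = 5 each), and the log2 fold change of 0.92 ± 0.36 (SE) did not pass the test (edgeR, FDR = 0.0532). Without Saline 1 it was 1.29 with an FDR of 0.00989. With any other single mouse left out it was 0.66 to 1.02 and did not pass (edgeR, FDR = 0.0565 to 0.152). Cd3d, which encodes the delta chain and lies 1355 bp from Cd3g, had 4 to 14 counts in saline-injected mice and 8 to 22 after CD95-Ab, and rose with a log2 fold change of 1.12 ± 0.38 (SE; edgeR, FDR = 0.0303).

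Cd4 encodes the co-receptor of helper T cells (ENSMUSG00000023274, chr6:124864692-124888221, − strand). It measured 0.988, 1.6, 0.451, 1.35 and 0.964 CPM in Saline 1 to 5 and 1.48, 1.56, 1.67, 2.06 and 2.32 CPM in CD95-Ab 1 to 5. The CD95-Ab mice were the more alike, and the groups overlapped through Saline 2 alone, which exceeded CD95-Ab 1 and 2. The means were 1.07 ± 0.436 and 1.82 ± 0.36 CPM (SD, n = 5 each), the smallest log2 fold change of the 10 genes at 0.77 ± 0.30 (SE; edgeR, FDR = 0.0517). DESeq2 gave nearly the same value, 0.76, with an adjusted p of 0.0288, so the call of Cd4 depended on the test.

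Cd8a encodes the alpha chain of CD8, the co-receptor of cytotoxic T cells (ENSMUSG00000053977, chr6:71373427-71379173, + strand). The values were 0.282, 0.504, 0.0563, 0.115 and 0.167 CPM in Saline 1 to 5, from 2 to 17 counts, and 0.321, 0.414, 0.597, 0.727 and 0.664 CPM in CD95-Ab 1 to 5. Saline 2 lay above CD95-Ab 1 and 2, and the other 4 saline-injected mice lay below every CD95-Ab mouse. The mean went from 0.225 ± 0.177 to 0.545 ± 0.171 CPM (SD, n = 5 each) with a log2 fold change of 1.26 ± 0.47 (SE; edgeR, FDR = 0.045). The call was lost in 11 of 17 alternative analyses, with no reversal. Its partner Cd8b1, 35933 bp away, had 2 to 6 counts in saline-injected mice and 7 to 19 after CD95-Ab, without overlap in CPM, and was too low to be tested.

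Most other genes of the T cell receptor complex and its signaling were called higher. Of 20 such genes listed, 19 were in the tables and 14 were tested, of which 11 were called higher and the other 3 were not called, with a median log2 fold change of 1.35. Zap70, a kinase that binds the receptor chains, had the lowest value of the list and was among those not called, at 3.54 ± 0.774 CPM in saline-injected and 2.67 ± 1.1 CPM in CD95-Ab mice (SD, n = 5 each; log2 fold change -0.42, edgeR FDR = 0.248); it is named here after its value was seen. Well-counted increases among them were in the adaptor Lcp2 (log2 fold change 2.11), the surface receptor Cd6 (1.76), the kinase Lck (1.58) and the adhesion receptor Cd2 (1.50). Lcp2 is also used by myeloid cells and stood at 4.37 ± 2.34 CPM in saline-injected and 18.9 ± 3.88 CPM in CD95-Ab mice (SD, n = 5 each). Among 8 tested genes of T lineage and of naive or memory T cells, 6 were called higher, among them the homing receptor Ccr7 (2.56), the chromatin organiser Satb1 (2.44) and the cytokine receptor Il7r (2.35).

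Both NK receptor genes of the set rose, one of them in all 5 mice above every saline-injected mouse. Klrb1c encodes the receptor NK1.1, the marker used for NK cells in this strain (ENSMUSG00000030325, chr6:128778485-128789215, − strand). Klrb1c stood at 0.682, 0.267, 0.141, 0.308 and 0.426 CPM in Saline 1 to 5 and at 1.99, 1.85, 2.07, 1.01 and 1.7 CPM in CD95-Ab 1 to 5. Only CD95-Ab 4 came near the saline-injected mice, and it still lay above Saline 1. The mean rose from 0.365 ± 0.205 to 1.72 ± 0.423 CPM (SD, n = 5 each), which was 4.60-fold, a log2 fold change of 2.20 ± 0.36 (SE; edgeR, FDR = 0.000443). This was the lowest FDR of the 10 genes.

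Klrb1c belongs to a family of similar C-type lectin receptors, among which reads may be shared out by the counting. Klrb1b, 24491 bp away, had 2 to 14 counts in saline-injected mice and 20 to 39 after CD95-Ab and rose with a log2 fold change of 2.37 ± 0.44 (SE; edgeR, FDR = 0.001). Klrb1f went from 0 to 5 counts per mouse to 5 to 20, and Klrb1a from 0 to 2 counts to 2 to 4, both below the filter. The annotated gene Gm44511 overlaps Klrb1c on the same strand and is not in the tables.

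Ncr1 encodes the activating receptor NKp46, found on NK cells and some innate lymphoid cells (ENSMUSG00000062524, chr7:4337724-4345164, + strand). Its level was 0.212, 0.326, 0.113, 0.0385 and 0.0927 CPM in Saline 1 to 5, from 1 to 11 counts, and 0.802, 0.478, 0.119, 0.484 and 0.598 CPM in CD95-Ab 1 to 5. CD95-Ab 3, with 3 counts, lay below Saline 1 and 2, whereas the other 4 lay above all of them. The mean went from 0.156 ± 0.114 to 0.496 ± 0.248 CPM (SD, n = 5 each), a log2 fold change of 1.66 ± 0.52 (SE; edgeR, FDR = 0.021). The call of Ncr1 was lost without Saline 5 (FDR = 0.0515) or without CD95-Ab 1 (FDR = 0.0553). CD95-Ab 3 was the highest mouse for Klrb1c, so the pair of NK receptors did not rank the mice alike.

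Of 22 further NK receptor genes measured, 11 were tested and 7 were called higher, with a median log2 fold change of 1.06. The largest well-counted increases were in the signaling receptors Cd244a (3.34) and Slamf7 (3.22), Klrb1b (2.37), the adhesion receptor Cd226 (1.90) and the inhibitory receptor Klrc1 (1.06). Slamf7 and Cd244a are also found on myeloid cells. Among 12 tested regulators of NK and cytotoxic cells, 9 were called higher, led by Il18rap (3.58) and Il18r1 (2.41), which form the receptor for interleukin 18, by Runx3 (3.08), a transcription factor of the Runx family, and by Stat4 (2.30), which signals downstream of interleukin 12. S1pr5, a receptor that guides NK cell exit from tissues, fell by 2.53 on the log2 scale, from 2.42 ± 1.11 to 0.409 ± 0.139 CPM (SD, n = 5 each; edgeR, FDR = 0.00013). Its mean in saline-injected mice was above those of Ncr1 (0.156 CPM) and Klrb1c (0.365 CPM), which both rose. Which cells carried S1pr5 was not tested.

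The genes of the cytotoxic granule held the largest change of the set. Prf1 encodes perforin (ENSMUSG00000037202, chr10:61297833-61304680, + strand). It had 0.141, 0.119, 0.113, 0.154 and 0 CPM in Saline 1 to 5, which were 6, 4, 4, 4 and 0 counts, and 1.28, 0.924, 0.876, 0.444 and 0.664 CPM in CD95-Ab 1 to 5, which were 40, 29, 22, 11 and 30 counts. The saline-injected mice thus had 6 counts at most and the CD95-Ab mice 11 at least, with CD95-Ab 1 highest and CD95-Ab 4 lowest. The mean rose from 0.105 ± 0.0612 to 0.838 ± 0.313 CPM (SD, n = 5 each), an 8.28-fold difference and a log2 fold change of 3.05 ± 0.53 (SE; edgeR, FDR = 0.000667). For Saline 5, the deepest library, 0 counts allow a level of up to 0.0556 CPM. Without Saline 5 the log2 fold change was 2.64 (edgeR, FDR = 0.000267), and with any other single mouse left out it was 2.84 to 3.22. With a prior count of 2 in the fit it was 2.52.

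Gzma encodes granzyme A, a tryptase of NK and cytotoxic T cells (ENSMUSG00000023132, chr13:113093825-113100981, − strand). The 5 saline-injected mice had 2.05, 1.57, 0.31, 0.616 and 0.519 CPM, and CD95-Ab 1 to 5 had 5.68, 4.49, 3.46, 1.74 and 1.64 CPM. The CD95-Ab mice split widely, and CD95-Ab 4 and 5 fell within the range of the saline-injected mice. The mean rose from 1.01 ± 0.754 to 3.4 ± 1.75 CPM (SD, n = 5 each), with a log2 fold change of 1.74 ± 0.52 (SE; edgeR, FDR = 0.016).

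Gzmb encodes granzyme B, which cleaves caspases in the target cell (ENSMUSG00000015437, chr14:56258838-56262260, − strand). The levels were 2.33, 1.13, 0.479, 0.462 and 0.593 CPM in Saline 1 to 5 and 4.01, 5.32, 3.42, 2.58 and 2.17 CPM in CD95-Ab 1 to 5. Saline 1 alone overlapped the treated range, above CD95-Ab 5 and below the other 4. The mean rose from 0.998 ± 0.792 to 3.5 ± 1.24 CPM (SD, n = 5 each), a log2 fold change of 1.79 ± 0.45 (SE; edgeR, FDR = 0.00611). Without Saline 1 it was 2.38 (edgeR, FDR = 0.000426), past the log2 threshold of 2. With any other single mouse left out it was 1.59 to 1.93. Gzmc, a neighbouring granzyme gene of similar sequence 24182 bp away, had 0 or 1 count in each saline-injected mouse and 11 to 21 counts in each CD95-Ab mouse, but was below the filter. Gzmk, on the chromosome of Gzma, had 0 to 2 and 0 to 3 counts.

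Nkg7 encodes a granule membrane protein needed for granule release (ENSMUSG00000004612, chr7:43437073-43438249, + strand). It measured 1.13, 0.474, 0.197, 0.269 and 0.352 CPM in Saline 1 to 5 and 1.19, 1.37, 0.955, 0.888 and 0.886 CPM in CD95-Ab 1 to 5. Saline 1 lay above 3 of the CD95-Ab mice, and the other 4 saline-injected mice were below all of them. The means were 0.484 ± 0.375 and 1.06 ± 0.214 CPM (SD, n = 5 each), and the log2 fold change was 1.10 ± 0.41 (SE; edgeR, FDR = 0.046). Without Saline 1 it was 1.69 (edgeR, FDR = 0.00157). With any other single mouse left out it was 0.90 to 1.16 and did not pass (edgeR, FDR = 0.0555 to 0.105). As for Cd8a, the call was lost in 11 of 17 alternatives.

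Of 21 other genes of granules and killing, 11 were tested and 7 were called higher, with a median log2 fold change of 1.48. The largest were the granule proteoglycan Srgn (4.35), which most blood cells make, the release factors Stx11 (3.85) and Unc13d (1.61), and the granzyme inhibitors Serpinb6b (2.99) and Serpinb9 (1.59). Gzmd, Gzme, Gzmf, Gzmg and Gzmn had 0 counts in every mouse. Among 13 tested activation genes 10 were called higher, led by the chemokines Ccl4 (6.42) and Ccl3 (6.23), the co-stimulatory receptor Tnfrsf9 (6.16), the inhibitory receptor Ctla4 (4.21) and the early activation antigen Cd69 (3.45). Macrophages also make Ccl3 and Ccl4, and neutrophils and other leukocytes can carry Cd69. Of 15 tested ligands and related genes that act on T and NK cells, 9 were called higher and 3 lower. The 3 called lower were Raet1d (-1.19), Raet1e (-0.97) and Il15ra (-0.87), named here after their values were seen. The increases included Cxcl10 (6.56) and Cxcl11 (3.01), which attract cells bearing the receptor CXCR3, the co-stimulatory ligands Cd80 (3.38) and Cd86 (3.08) and the inhibitory ligand Cd274 (3.18).

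**Figure D2:**
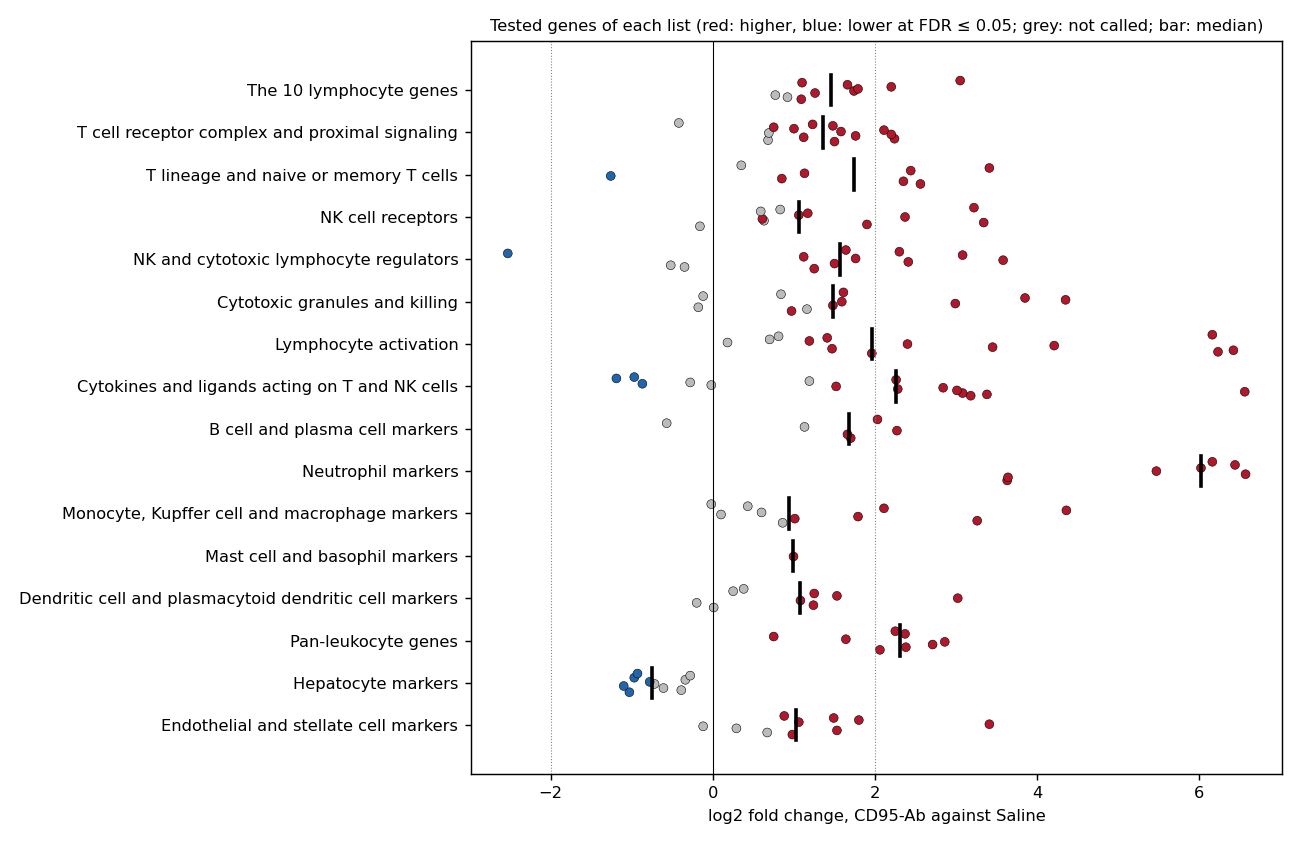
Log2 fold change of each tested gene, CD95-Ab against saline (horizontal axis), by gene list, with the list median as a black bar and dotted lines at -2 and 2. The lymphocyte genes have a median of 1.46, between the pan-leukocyte genes at 2.31 and the NK receptor list at 1.06, and the neutrophil markers stand far to the right at 6.02.

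Levels of different genes were compared on FPKM, which divides by transcript length. In saline-injected mice the order of mean FPKM was Gzma (1.34 ± 1.09), Gzmb (0.792 ± 0.686), Nkg7 (0.634 ± 0.54), Cd3g (0.432 ± 0.307), Cd4 (0.368 ± 0.168), Cd3e (0.216 ± 0.0835), Klrb1c (0.192 ± 0.126), Ncr1 (0.12 ± 0.0941), Cd8a (0.08 ± 0.0682) and Prf1 (0.058 ± 0.0335; SD, n = 5 each). Granzyme A transcripts thus led and perforin came last. After CD95-Ab the order was Gzma (4.17 ± 2.53), Gzmb (2.54 ± 1.04), Nkg7 (1.27 ± 0.358), Klrb1c (0.816 ± 0.262), Cd3g (0.72 ± 0.373), Cd4 (0.606 ± 0.147), Cd3e (0.432 ± 0.164), Prf1 (0.422 ± 0.199), Ncr1 (0.352 ± 0.2) and Cd8a (0.17 ± 0.0412). Klrb1c moved from the seventh to the fourth place and Prf1 from the last to the eighth, while the first 3 genes held their places. Between mice, the ranges of every pair of neighbours in either order overlapped. Within a mouse, Gzma was above Gzmb and Gzmb above Nkg7 in all 10 mice, Nkg7 was above Klrb1c in all 5 CD95-Ab mice, and Cd4 was above Cd3e in all 5 saline-injected mice and in 4 of 5 after CD95-Ab. For every other pair of neighbours the order held in 2 to 4 of the 5 mice, so those places do not differ beyond the spread between mice.

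The ratios of 6 pairs of these genes were compared within each mouse to ask whether genes of one role moved by different factors. The ratio of Gzmb to Gzma differed by 0.12 on the log2 scale between CD95-Ab and saline-injected mice (95% interval -0.52 to 0.75; exact permutation test, two-sided, p = 0.69, adjusted p = 0.69, n = 5 each). Cd8a to Cd4 differed by 0.64 (-0.15 to 1.42; exact p = 0.0952, adjusted p = 0.5), with all 5 CD95-Ab mice between -2.15 and -1.46 and Saline 4 lowest at -3.34. For Gzmb to Prf1 the difference was -1.25 (-3.15 to 0.66; exact p = 0.167, adjusted p = 0.5), toward more Prf1. The ratio of Ncr1 to Cd3e, an NK gene against a T cell gene, differed by 0.57 (-0.63 to 1.77; exact p = 0.325, adjusted p = 0.651). Gzmb to Ncr1 differed by 0.37 (-0.99 to 1.73) and Cd3e to Cd3g by 0.14 (-0.40 to 0.67), both with an adjusted p of 0.686 in the exact test. None of the 6 passed the threshold, and the intervals leave room for differences of more than 1 on the log2 scale in 4 of them.

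The lymphocyte genes were then set against Ptprc, the gene of CD45, which all nucleated blood cells carry. This comparison was added after the data were seen. Ptprc itself rose from 8.65 ± 4.32 to 44.8 ± 12 CPM (SD, n = 5 each), a log2 fold change of 2.37 ± 0.33 (SE; edgeR, FDR = 0.000118). The 8 pan-leukocyte genes, Ptprc among them, had log2 fold changes from 0.75 (Ptpn6) to 2.86 (Coro1a) with a median of 2.31. Only Ptprc was used as the reference, and ratios to the other pan-leukocyte genes were not tested. Relative to Ptprc, the T cell genes and Nkg7 were lower after CD95-Ab. The log2 ratio to Ptprc differed by -1.41 for Cd3e (95% interval -2.18 to -0.64), -1.54 for Cd3g (-2.42 to -0.67), -1.64 for Cd4 (-2.37 to -0.90), -1.0 for Cd8a (-1.70 to -0.29) and -1.14 for Nkg7 (-1.83 to -0.45). These 5 passed an exact permutation test adjusted over the 10 genes (adjusted p = 0.0265 for Cd3e, Cd4 and Nkg7 and 0.0317 for Cd3g and Cd8a, n = 5 mice each). For Cd3e, Cd4 and Nkg7 all 5 CD95-Ab mice lay below every saline-injected mouse, and for Cd3g and Cd8a 4 of 5 did.

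Klrb1c, Ncr1, Gzma, Gzmb and Prf1 were not shown to differ from Ptprc, unlike the granule gene Nkg7. The difference was -0.16 for Klrb1c (95% interval -0.99 to 0.67; exact permutation test, adjusted p = 0.667), -0.59 for Gzma (-1.75 to 0.57; adjusted p = 0.387), -0.47 for Gzmb (-1.38 to 0.44; adjusted p = 0.387), 0.78 for Prf1 (-1.34 to 2.89; adjusted p = 0.608) and -0.84 for Ncr1 (-2.0 to 0.32; adjusted p = 0.212). Intervals this wide do not show that these genes moved with Ptprc, and whether they differed from the T cell genes as a group was not tested. Leaving out single mice raised the adjusted p of the 5 called ratios to between 0.0529 and 0.0635, for all 5 with Saline 1 left out, and for Cd3e, Cd3g and Cd8a also with Saline 4 or 5 left out. Cd8a also lost its call without Saline 2 or CD95-Ab 1. The differences themselves stayed below 0 throughout. Without Saline 1 they were -1.47 for Cd3e, -1.49 for Cd3g, -1.83 for Cd4, -1.04 for Cd8a and -0.97 for Nkg7.

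**Figure D3:**
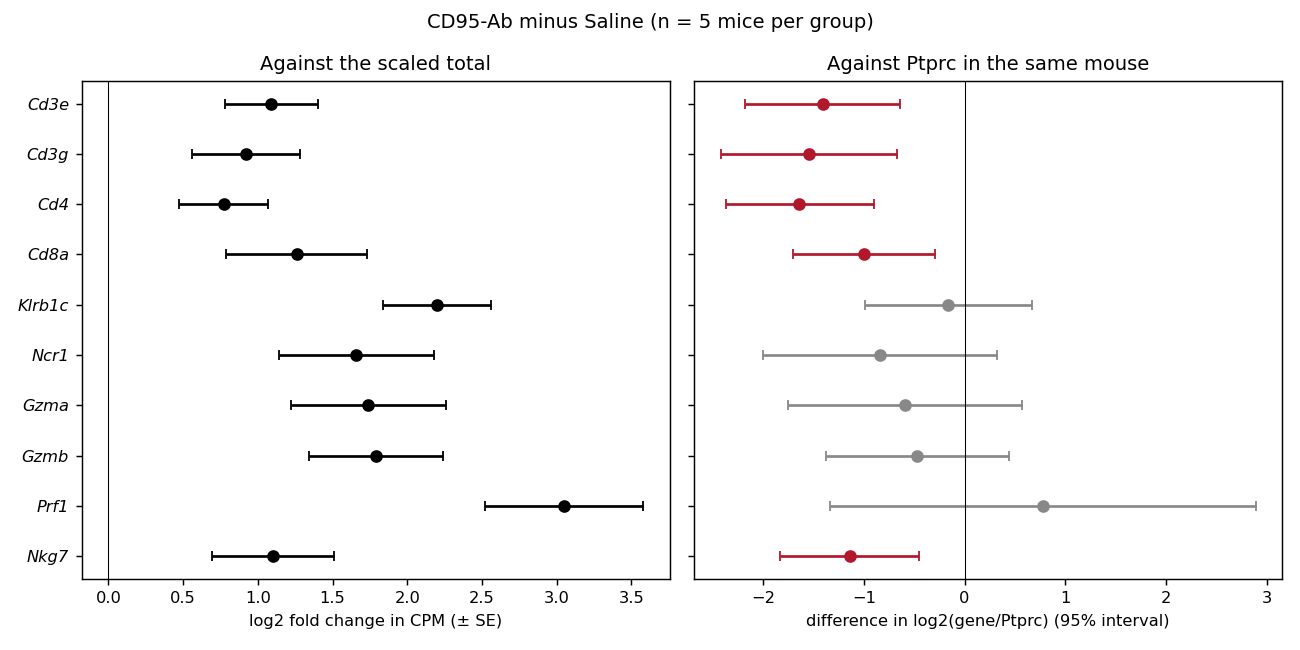
Difference between CD95-Ab and saline-injected mice for each lymphocyte gene as the log2 fold change in CPM (left, ± SE) and as the difference in log2 ratio to Ptprc within a mouse (right, 95% interval; red where the adjusted p was 0.05 or less). All 10 values are above 0 on the left, from 0.77 to 3.05, whereas on the right Cd3e, Cd3g, Cd4, Cd8a and Nkg7 lie below 0 and the intervals of the other 5 cross it.

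The saline-injected mice differed from each other in the total of the 10 genes. The summed level was 8.89, 6.58, 2.28, 3.89 and 3.65 CPM in Saline 1 to 5 and 18.8, 17.5, 14.1, 11.2 and 11.8 CPM in CD95-Ab 1 to 5. Saline 1 was the highest of its group for 6 genes, and Saline 3 was the lowest for 7. The 8 pan-leukocyte genes, all of which were called higher, summed to 84.9, 93.1, 37.4, 50.1 and 51.8 CPM in Saline 1 to 5, again with Saline 1 and 2 high and Saline 3 low. After CD95-Ab they summed to 230 to 303 CPM.

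Markers of other cells that can carry some of these transcripts moved between the groups as well, and their part in the lymphocyte results was not tested. Of 10 mast cell and basophil genes, a further source of granzymes, only Gata2 was tested, and it was called higher. The summed level of these 10 genes was 0.415 to 0.964 CPM in saline-injected and 1.03 to 2.39 CPM in CD95-Ab mice, and the mast cell gene Tpsb2 had 0 counts in every mouse. Of 10 dendritic cell genes 9 were tested and 5 were called higher. The sum of the 10 was 139 to 256 CPM in saline-injected and 134 to 318 CPM in CD95-Ab mice. Most of this sum was Bst2, with means of 173 and 175 CPM, which was not called (log2 fold change 0.01, edgeR FDR = 0.971). Of 10 monocyte and macrophage genes, some of whose cells carry CD4, 5 were called higher, with sums of 134 to 458 CPM and 294 to 633 CPM.

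B cells are the lymphocytes outside the gene set. Of 8 B and plasma cell genes 6 were tested and 4 were called higher, with sums of 1.35 to 4.65 CPM in saline-injected and 3.37 to 16.8 CPM in CD95-Ab mice. CD95-Ab 4 had the highest B cell sum and the lowest sum of the 10 T, NK and cytotoxic genes among the treated mice. Of 10 neutrophil genes 7 were tested and all 7 were called higher, with sums of 4.19 to 10.8 CPM and 110 to 465 CPM. Endothelial and stellate cell genes were called higher in 7 of 10, with sums of 153 to 232 CPM and 424 to 706 CPM. Small noncoding RNA moved with treatment too, and Rn7sk, a small nuclear RNA, was 0.392 ± 0.241 CPM in saline-injected and 742 ± 354 CPM in CD95-Ab mice (SD, n = 5 each); its part in the lymphocyte values was not tested.

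**Figure D4:**
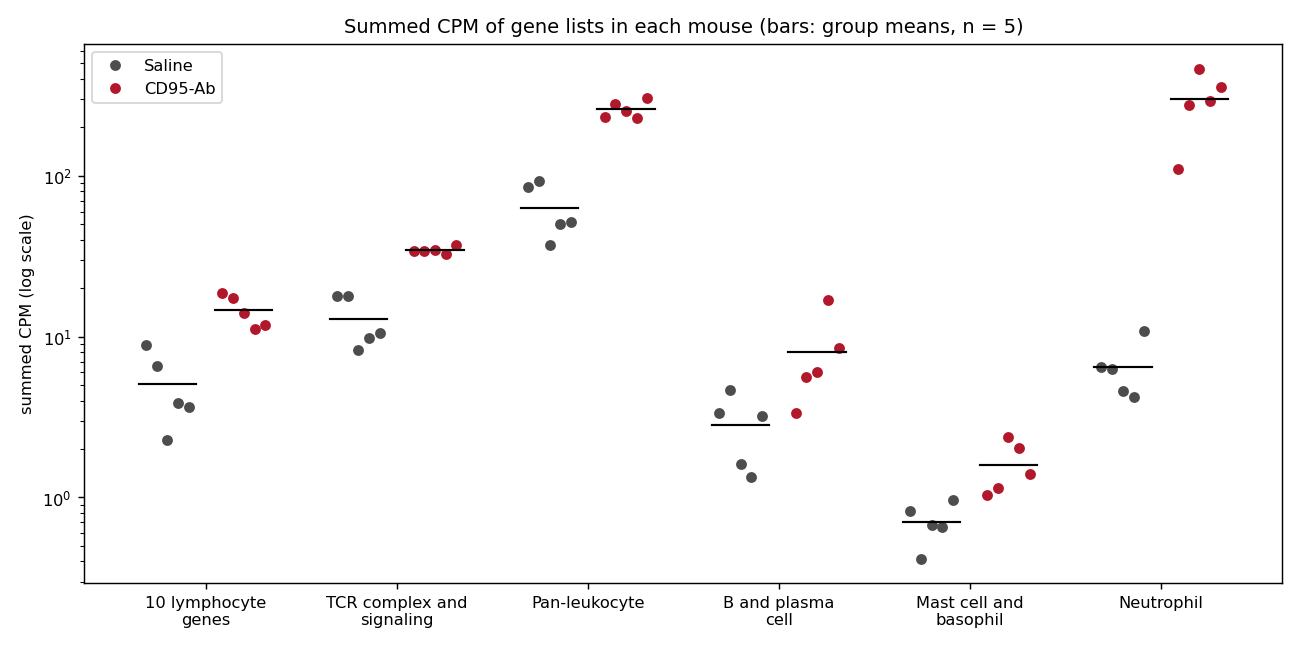
Summed CPM of 6 gene lists (log scale) in each of 5 saline-injected (grey) and 5 CD95-Ab mice (red), with group means as bars. The 10 lymphocyte genes range from 2.28 to 8.89 CPM in saline-injected mice and from 11.2 to 18.8 CPM after CD95-Ab, and the neutrophil markers from 4.19 to 10.8 and from 110 to 465 CPM.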

How the data were processed

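Liver RNA of 10 mice, 5 given saline and 5 given CD95-Ab, was analysed, with groups and replicate numbers taken from the sample labels. The authors assigned paired 100 bp reads to genes with RSEM 1.2.19 and deposited an expected count and an FPKM value for each gene and mouse. The expected counts that the authors deposited were whole numbers and not normalized, so rounding changed nothing. The FPKM values deposited by the authors take transcript length and library total into account and were used only to order genes by level and in 1 alternative for the ratios. RSEM can share out reads that match several genes, which would bear on similar or overlapping genes. How such reads entered the whole-number counts is not given. The methods of the study name a human Gencode release for this step, whereas the tables hold mouse Ensembl identifiers, and the mouse annotation release, the genome build and the use of strand are not given in the sources used here. Symbols and positions came from the GENCODE mouse annotation on GRCm38, which matched 37606 of 38922 gene identifiers, and promoter sequences from RefSeq (GRCm38.p6).

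Genes were kept by filterByExpr with a minimum count of 10, totals were scaled by TMM, and a model with no term other than group was fitted in edgeR 4.0.16 (R 4.3.3) and tested by quasi-likelihood. FDR is the Benjamini-Hochberg value over all tested genes. Ratios between genes were log2 of counts plus 0.5, compared with an exact two-sided permutation test over mice, whose smallest p is 0.00794 with 5 mice against 5, and their 95% intervals came from the spread between mice. Tables were handled in pandas 2.3.3 and scipy 1.17.1 under Python 3.11.15. The alternatives were DESeq2 1.42.0, limma 3.58.1 (voom), other scaling factors and filters, a pseudocount of 2, leaving out single mice, and a block for the replicate number. The code was tested on simulated counts with known changes.

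The lymphocyte genes, the gene lists and the tests were chosen with earlier results of these data known. Genes named from a list are the up to 5 called ones with the largest absolute log2 fold change among those reaching 10 counts in each mouse of the group with the higher level, and list genes beside or similar to one of the 10. A few genes that meet this rule are not reported here. The ratios to Ptprc were added after the data were seen. Depth was 25965699 to 62097636 counts per mouse, and floors cover counting error only. The study kept its mice in groups, but which of these mice shared a cage or a litter is not given. The tests set the difference between groups against the spread between mice. They take the mice as independent, which could not be checked.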

Additional observations from a re-analysis of the deposited data

Results flagged for a closer look

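The values of 2 mice lay apart from the other mice of their group by Dixon's test, among 32 groups of 5 values examined, and chance alone marks about 1 group in 20. Cd3g was at 0.682 CPM in Saline 1, while the other 4 saline-injected mice had 0.254 to 0.308 CPM. Prf1 was at 0 CPM in Saline 5, while the other 4 had 0.113 to 0.154 CPM.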

How the results depend on the processing

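Across 17 alternatives, Cd3e, Prf1 and Klrb1c kept their calls wherever they were tested, as did Gzma and Gzmb across 18, and no log2 fold change of the 10 genes changed sign. Cd8a and Nkg7 each lost their calls in 11 alternatives and Ncr1 in 2, while Cd4 gained a call in 4 and Cd3g in 3. With at least 10 counts required in every mouse, 3 of the 10 genes (Cd4, Gzma and Gzmb) were tested, 3 were called higher and 0 passed both thresholds, because fewer genes were tested. With single mice left out, 5 to 8 genes were called higher (5 without Saline 5), and 1 to 4 passed both thresholds (1, Prf1, without Saline 3; 4, with Gzma and Gzmb added, without Saline 1); the cause was not tested. The ratio differences then ranged from -0.01 to 0.28 for Gzmb to Gzma, changing sign without Saline 2, from -1.70 to -0.56 for Gzmb to Prf1 (without Saline 4, exact permutation p = 0.0317, adjusted p = 0.19) and from -0.06 to 0.64 for Gzmb to Ncr1, changing sign without CD95-Ab 3. Of the ratios to Ptprc, Prf1 ranged from -0.01 to 1.19 with single mice left out, changing sign without Saline 5, and Ncr1 passed with a pseudocount of 2 (-1.07, exact permutation, adjusted p = 0.0397).

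The labels give both groups replicate numbers 1 to 5. Over all tested genes, the correlations of same-numbered mice in their deviations from the group means were 0.257, 0.0875, 0.13, -0.0166 and -0.274. Only 2 of the 5 numbers correlated best with their own, so the mice were taken to share only a number. The summed level of the 10 genes was highest in replicates 1 and 2 of each group, and pairing in these genes alone was not tested. With the replicate block, 8 of the 10 genes were again called higher, 2 passed both thresholds and 5987 genes were called in all. Cd3g then passed (log2 fold change 0.96, FDR = 0.0218) and Cd8a did not (1.36, FDR = 0.0782). With the block the edgeR FDR was lower for Gzma (0.00241), Gzmb (0.00165) and Nkg7 (0.0192). It was higher for Cd3e, Cd4, Prf1, Klrb1c and Ncr1, without a change of call.

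Counts of single genes were low, with 0 to 54 counts per saline-injected mouse for all but Gzma and Gzmb, and this limits what the depth can show for Cd8a, Ncr1 and Prf1.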

Other observations

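Several lymphocyte genes had too few counts to pass the filter, and they were picked here after their values were seen. Fasl, the ligand of CD95, had 3 to 7 counts in each saline-injected mouse and 9 to 19 in each CD95-Ab mouse, or 0.0845 to 0.208 and 0.354 to 0.61 CPM. Eomes, a T-box transcription factor of NK and CD8 T cells, had 0 to 3 and 7 to 19 counts. Itga2, the integrin DX5 of NK cells, had 0 to 4 and 5 to 22 counts. In these 3 genes every CD95-Ab mouse lay above every saline-injected mouse in CPM. This was known when they were picked, so it is no test of them. The share of 18.6% holds for tested genes, and these 3 were not tested. Some other genes below the filter, such as Cd8b1, Gzmc and Klra8, were also without overlap. Others overlapped between the groups. Among them were Cxcr3, with 5 to 17 counts in saline-injected and 3 to 11 in CD95-Ab mice, and Cd27, with 3 to 12 and 0 to 11. Ifng, the cytokine that NK and T cells release on activation, had 0 to 5 and 1 to 8 counts, and its groups overlapped. Tbx21, the other T-box factor of cytotoxic cells, had 4 to 13 and 4 to 19 counts.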
